A study of Mus musculus with 18 samples.

Results

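Nr3c1, which encodes the glucocorticoid receptor, and 8 genes known as its induced targets (Tsc22d3, Fkbp5, Per1, Sgk1, Ddit4, Errfi1, Zbtb16 and Klf9) were followed in bone marrow-derived macrophages (BMDMs). The 9 genes were chosen by name, and all 9 were among the 20615 genes of the deposited table and among the 15789 genes that passed the filter on low counts. RNA was sequenced from 18 BMDM samples, 3 in each of 6 groups, made of C57BL/6 (B6) and C57BL/6.NOD-Aec1Aec2 (SjSS) mice. SjSS mice are a model of Sjögren's syndrome on the B6 background with chromosome intervals of the NOD mouse, and none of the 9 genes lies on the chromosomes of those intervals, 1 and 3. BMDMs of both strains came from female mice of 7 to 12 weeks and were grown for 7 days with L929 supernatant, which holds M-CSF. Control BMDMs were left untreated, others received CpG, an oligonucleotide that stimulates TLR9, at 1 µM for 6 h, and others received apoptotic cells (ACs). The ACs were thymocytes killed with dexamethasone, itself a ligand of the glucocorticoid receptor, and were washed, given at 5 per BMDM for 2 h and removed by washing 3 h before RNA collection, a time given in the labels (4 h in the study's methods). Controls received neither thymocytes nor dexamethasone, so that ACs and any steroid carried with them cannot be told apart in these comparisons. The BMDMs came from 3 mice of each strain. The sources used here do not state whether equal replicate numbers mark a shared mouse. The p values thus measure the spread between these samples. By the study's methods thymi were taken from both strains, but which strain gave the thymocytes of these samples is not stated. If each strain received its own, the strain of the BMDMs and that of the thymocytes cannot be told apart in strain differences with ACs or in the AC interaction.

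The glucocorticoid receptor is a nuclear receptor that waits in the cytoplasm in a complex with HSP90 and FK506-binding proteins, and that enters the nucleus once a glucocorticoid binds it. There it induces genes through glucocorticoid response elements and represses many inflammatory genes by acting on other transcription factors. In macrophages the receptor is best known for this anti-inflammatory side. Among its targets, Tsc22d3 encodes GILZ, a mediator of the anti-inflammatory effect, and Fkbp5 encodes a co-chaperone that lowers the receptor's affinity for ligand and so closes a feedback loop. Per1 is a core gene of the circadian clock, and Sgk1 encodes a kinase first found as serum and glucocorticoid induced. Ddit4 encodes REDD1, an inhibitor of mTORC1 that stress also induces, and Errfi1 encodes MIG6, a feedback inhibitor of the EGF receptor. Zbtb16 (PLZF) and Klf9 encode zinc finger transcription factors.

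RefSeq promoter windows (GRCm38.p6, the assembly of mm10), from 250 bases before to 50 bases after each transcript start, were held for 7 of the 9 genes, 16 windows in all. The full response element was searched as AGAACA and TGTTCT with any 3 bases between them, a sequence that reads alike on both strands. A single hexamer of it, AGAACA or TGTTCT, was searched on its own, and so was the E-box CACGTG, which clock and MYC family proteins bind. The full element was in 1 of the 16 windows, at an upstream start of Sgk1, and in 3 of the 32851 promoters searched (0.00913%). A hexamer was in 4 of the 16 windows, that one included, against 19% of the promoters searched. All 4 were windows of Sgk1 or Tsc22d3, and 6 of the 16 windows belong to Sgk1. Counted by gene, 5750 of the 27025 genes searched had a hexamer. The E-box was in 3 of 16 (Per1, Fkbp5 and the same Sgk1 window) against 7.15% of the promoters searched. The windows of Sgk1, Tsc22d3 and Per1 below are shown because each holds a searched motif and belongs to a gene that rose or fell with ACs in SjSS. Capitals mark the full element in Sgk1, the hexamer in Tsc22d3 and the E-box in Per1.
Sgk1, chr10:21993640-21993939, plus strand: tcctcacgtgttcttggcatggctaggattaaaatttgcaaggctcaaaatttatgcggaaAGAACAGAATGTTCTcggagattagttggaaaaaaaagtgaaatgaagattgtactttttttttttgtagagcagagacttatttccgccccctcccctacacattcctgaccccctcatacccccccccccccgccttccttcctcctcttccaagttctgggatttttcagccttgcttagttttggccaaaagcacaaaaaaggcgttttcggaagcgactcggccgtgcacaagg
Tsc22d3, chrX:140600473-140600772, minus strand: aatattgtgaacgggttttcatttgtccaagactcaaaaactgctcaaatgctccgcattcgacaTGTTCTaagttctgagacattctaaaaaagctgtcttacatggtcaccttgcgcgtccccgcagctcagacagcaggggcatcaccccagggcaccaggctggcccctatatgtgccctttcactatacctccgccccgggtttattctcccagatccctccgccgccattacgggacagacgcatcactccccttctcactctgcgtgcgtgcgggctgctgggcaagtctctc
Per1, chr11:69098699-69098998, plus strand: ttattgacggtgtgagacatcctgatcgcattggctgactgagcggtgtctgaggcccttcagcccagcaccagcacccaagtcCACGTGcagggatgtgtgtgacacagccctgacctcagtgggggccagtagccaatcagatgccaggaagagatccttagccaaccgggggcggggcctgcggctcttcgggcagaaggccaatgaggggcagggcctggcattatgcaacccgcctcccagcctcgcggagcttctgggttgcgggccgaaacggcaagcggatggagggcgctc
The capitals begin 189 bases before the transcript start in Sgk1, 185 bases before it in Tsc22d3 and 166 bases before it in Per1. These windows are 1 of 6 starts listed for Sgk1, 1 of 3 for Tsc22d3 and 1 of 2 for Per1, and the deposited counts, being per gene, do not tell which start was used. A match of letters is a description of the window, not a measured site.

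Levels are given as CPM, the count of a gene scaled to a common library total by TMM, and comparisons as log2 fold changes with their standard error (SE) from edgeR's quasi-likelihood test, adjusted by the Benjamini-Hochberg method over all tested genes. A gene is said to have risen or fallen, or to be higher or lower, at an adjusted p under 0.05, and to be called where the log2 fold change was also over 1.3 in size. Library totals ran from 30688336 counts in a SjSS control sample to 57139662 in a B6 control sample, with a median of 47912525. Macrophage markers were present in all 18 samples: the 10 genes of the list, none at 0 in any group, summed to between 16223 and 24766 CPM. Stromal markers (6 genes, none at 0 in any group) summed to 41.8 to 138 CPM in B6 and 153 to 238 CPM in SjSS samples, and their part in differences between the strains was not tested. In bulk samples, fewer cells that express a gene and less RNA per cell cannot be told apart. Per kilobase of exon, the mean levels in B6 control BMDMs ran from 33.2 CPM per kb for Sgk1, 20.5 for Nr3c1 and 11.6 for Tsc22d3 down through 6.74 for Errfi1, 3.97 for Per1, 3.08 for Klf9, 2.94 for Ddit4 and 1.79 for Fkbp5. Zbtb16 was far below the others at 0.0468 CPM per kb, with 7 to 19 counts in each B6 control sample.

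Nr3c1 itself (chromosome 18, 39410545 to 39491302) rose 2.07-fold with ACs in SjSS BMDMs and did not pass the test with them in B6. In B6, the 3 control samples had 165, 166 and 141 CPM, the AC samples 145, 151 and 160, and the CpG samples 209, 195 and 195. In SjSS, the control samples had 135, 134 and 117 CPM, the AC samples 258, 257 and 284, and the CpG samples 175, 163 and 171. All 3 AC treated SjSS samples thus stood above the other 15 samples, while the AC and control samples of B6 overlapped. The mean ± SD in SjSS went from 129 ± 10.1 to 266 ± 15.1 CPM (n = 3) with ACs, a log2 fold change of 1.05 (SE 0.07, edgeR adjusted p = 2.22e-10). In B6 the log2 fold change with ACs was -0.05 (SE 0.07, edgeR adjusted p = 0.612, 95% interval from the SE of -0.19 to 0.09). CpG raised Nr3c1 in both strains, by 0.34 on the log2 scale in B6 (SE 0.07, edgeR adjusted p = 0.000357) and by 0.40 in SjSS (SE 0.07, edgeR adjusted p = 9.24e-05), with no overlap between CpG and control samples in either strain. In the order of group means, SjSS with ACs and B6 with CpG stood first and second without overlap, SjSS with CpG and the control and AC groups of B6 overlapped with their neighbours, and SjSS control came last, below all B6 AC samples.

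**Figure D1:**
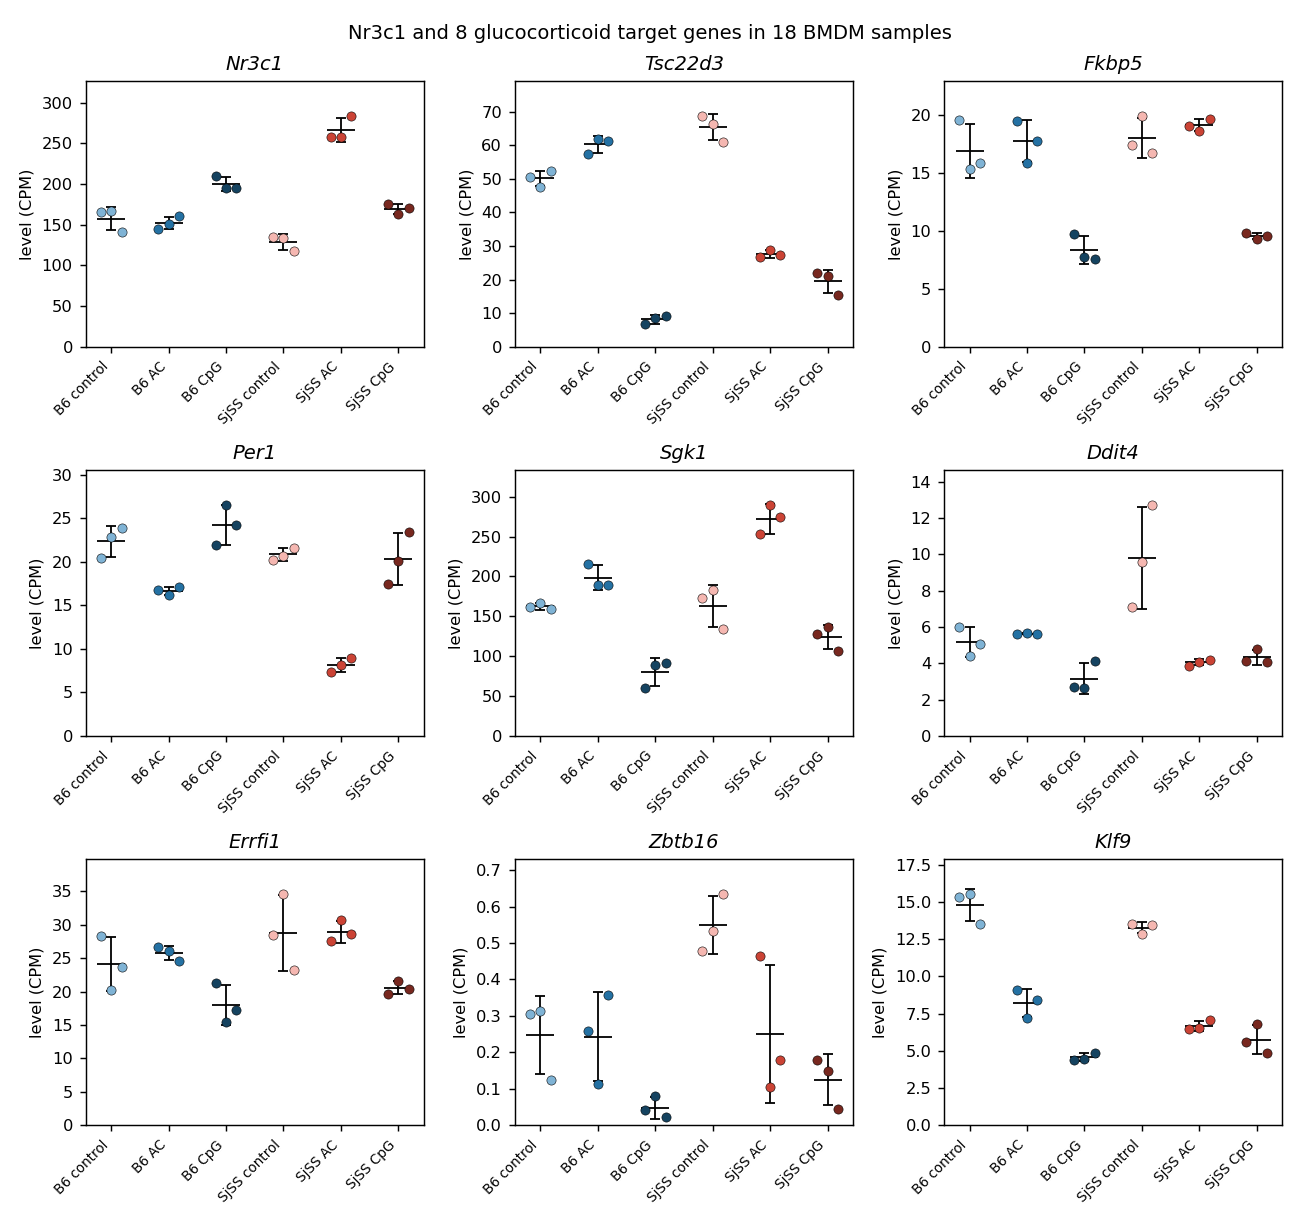
Level of each of the 9 genes in CPM (vertical axes, each from 0) in the 18 samples, by group. Points are samples, horizontal lines are means and bars are SDs of 3 samples. Nr3c1 and Sgk1 were highest in AC treated SjSS BMDMs, where Tsc22d3, Per1, Ddit4 and Klf9 lay below their controls, and Tsc22d3, Fkbp5 and Klf9 were lowest or among the lowest with CpG.

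Tsc22d3 (chromosome X, 140539528 to 140600660), the gene of GILZ, fell with ACs in SjSS and rose slightly with them in B6, a rise that rested on every sample. In B6, the control samples had 50.7, 47.7 and 52.2 CPM, the AC samples 57.5, 61.9 and 61.4, and the CpG samples 6.75, 8.47 and 9.32. In SjSS, the control samples had 68.8, 66.3 and 61.1 CPM, the AC samples 26.8, 28.9 and 27.2, and the CpG samples 21.8, 21.1 and 15.5. In neither strain did the AC samples overlap with the controls, all B6 AC samples lying above them and all SjSS AC samples below. The rise in B6 was small, 0.26 on the log2 scale (SE 0.10, edgeR adjusted p = 0.047), and its adjusted p went to between 0.0545 and 0.142 when any 1 of the 6 samples was left out, and to 0.0626 with no filter on low counts. The fall in SjSS was -1.24 (SE 0.10, edgeR adjusted p = 5.15e-09), from 65.4 ± 3.95 to 27.6 ± 1.10 CPM (n = 3). CpG gave the largest fall of any of the 9 genes in B6, -2.62 (SE 0.11, edgeR adjusted p = 4.68e-13), and a fall of -1.75 in SjSS (SE 0.11, edgeR adjusted p = 7.81e-11), where the CpG samples stayed above all CpG samples of B6.

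Fkbp5 (chromosome 17, 28399095 to 28517525), the feedback co-chaperone, did not pass the test with ACs in either strain. Its levels ran from 15.4 to 19.6 CPM in the control and 15.9 to 19.5 CPM in the AC samples of B6, and from 16.7 to 20.0 CPM in the control and 18.7 to 19.7 CPM in the AC samples of SjSS. These groups overlapped, and the log2 fold changes with ACs were 0.06 in B6 (95% interval from the SE -0.14 to 0.27, edgeR adjusted p = 0.679) and 0.09 in SjSS (-0.12 to 0.30, edgeR adjusted p = 0.496). CpG roughly halved Fkbp5 in both strains, to 7.63 to 9.72 CPM in B6 (-1.02, SE 0.11, edgeR adjusted p = 1.79e-07) and 9.29 to 9.83 CPM in SjSS (-0.91, SE 0.11, edgeR adjusted p = 9.63e-07), below every control sample.

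Per1 (chromosome 11, 69095217 to 69109961), the clock gene, fell with ACs in both strains and did not pass the test with CpG in either. In B6, the control samples had 20.4, 22.8 and 23.9 CPM, the AC samples 16.7, 16.2 and 17.0, and the CpG samples 21.9, 26.5 and 24.2. In SjSS, the control samples had 20.2, 20.7 and 21.6 CPM, the AC samples 7.34, 8.18 and 8.97, and the CpG samples 17.5, 20.1 and 23.4. The AC samples lay below the controls of their strain without overlap, and those of SjSS below all 15 other samples. The fall was -0.42 in B6 (SE 0.10, edgeR adjusted p = 0.00192) and -1.35 in SjSS (SE 0.10, edgeR adjusted p = 1.45e-09). With CpG the log2 fold change was 0.11 in B6 (95% interval from the SE -0.08 to 0.30, edgeR adjusted p = 0.332) and -0.04 in SjSS (-0.23 to 0.16, edgeR adjusted p = 0.777).

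Sgk1 (chromosome 10, 21882184 to 21999904), the kinase gene with the full response element, rose with ACs in SjSS and fell with CpG in both strains. In B6, the control samples had 162, 167 and 159 CPM, the AC samples 216, 190 and 189, and the CpG samples 59.8, 88.5 and 92.1. In SjSS, the control samples had 172, 183 and 134 CPM, the AC samples 253, 290 and 274, and the CpG samples 128, 136 and 107. The AC samples stood above the controls of their strain without overlap, and only the CpG and control samples of SjSS overlapped. The rise in SjSS was 0.74 (SE 0.13, edgeR adjusted p = 8.51e-05), and the value in B6 was 0.29 (SE 0.13, edgeR adjusted p = 0.0974, and 0.00377 when the B6 control and AC samples alone were fitted). With CpG, Sgk1 fell by 1.02 on the log2 scale in B6 (SE 0.13, edgeR adjusted p = 2.18e-06) and by 0.40 in SjSS (SE 0.13, edgeR adjusted p = 0.0169). The fall in SjSS no longer passed the test without replicate 1 or 2 of the controls or replicate 3 of the CpG samples (edgeR adjusted p from 0.0576 to 0.0931).

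Ddit4 (chromosome 10, 59949675 to 59951771), the gene of the mTORC1 inhibitor REDD1, was higher in untreated SjSS than in untreated B6 BMDMs and fell with both treatments in SjSS. In B6, the control samples had 6.02, 4.40 and 5.06 CPM, the AC samples 5.62, 5.68 and 5.62, and the CpG samples 2.70, 2.64 and 4.13. The SjSS control samples had 7.09, 9.58 and 12.7 CPM, the AC samples 3.88, 4.10 and 4.20, and the CpG samples 4.14, 4.82 and 4.07. The SjSS controls spread widely and still stood above the other 15 samples. The fall in SjSS was -1.27 with ACs (SE 0.19, edgeR adjusted p = 9.14e-06) and -1.18 with CpG (SE 0.19, edgeR adjusted p = 2.51e-05). In B6 the log2 fold change was 0.12 with ACs (SE 0.18, edgeR adjusted p = 0.647, groups overlapping) and -0.71 with CpG (SE 0.19, edgeR adjusted p = 0.00385, no overlap).

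Klf9 (chromosome 19, 23141226 to 23166912), a transcription factor gene, fell with both treatments in both strains. In B6, the control samples had 15.3, 15.5 and 13.6 CPM, the AC samples 9.06, 7.19 and 8.45, and the CpG samples 4.37, 4.47 and 4.87. The SjSS control samples had 13.5, 12.9 and 13.5 CPM, the AC samples 6.46, 6.52 and 7.04, and the CpG samples 5.62, 6.79 and 4.84. No treated sample overlapped with the controls of its strain. With ACs the fall was -0.85 in B6 (SE 0.11, edgeR adjusted p = 4.22e-06) and -0.99 in SjSS (SE 0.11, edgeR adjusted p = 2.54e-07), and with CpG it was -1.69 in B6 (SE 0.11, edgeR adjusted p = 1.88e-10) and -1.21 in SjSS (SE 0.11, edgeR adjusted p = 2.57e-08).

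Errfi1 (chromosome 4, 150853919 to 150868893), the gene of the EGF receptor inhibitor MIG6, did not pass the test with ACs and fell slightly with CpG. It ran from 20.3 to 28.4 CPM in the control, 24.5 to 26.6 CPM in the AC and 15.4 to 21.2 CPM in the CpG samples of B6. In SjSS it ran from 23.3 to 34.6 CPM in the control, 27.5 to 30.7 CPM in the AC and 19.6 to 21.6 CPM in the CpG samples. The CpG samples overlapped with the controls in B6 and not in SjSS. The log2 fold change with ACs was 0.09 in B6 (SE 0.13, edgeR adjusted p = 0.634) and 0.01 in SjSS (SE 0.13, edgeR adjusted p = 0.935). With CpG it was -0.43 in B6 (SE 0.13, edgeR adjusted p = 0.0098) and -0.48 in SjSS (SE 0.13, edgeR adjusted p = 0.00463). The fall in B6 did not pass the test without replicate 1 of the controls (edgeR adjusted p = 0.079) or replicate 2 of the CpG samples (0.0589).

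Zbtb16 (chromosome 9, 48654311 to 48835946), the gene of the transcription factor PLZF, was at the edge of detection, with 1 to 35 counts in each sample. In B6, the control samples together had 41 counts, the AC samples 35 and the CpG samples 6. In SjSS, the control samples had 79 counts, the AC samples 31 and the CpG samples 16. As levels these were 0.124 to 0.313 CPM in the B6 controls against 0.0217 to 0.0799 CPM with CpG, and 0.479 to 0.635 CPM in the SjSS controls against 0.0457 to 0.180 CPM with CpG, with no overlap in either strain. Zbtb16 fell with CpG by 2.37 on the log2 scale in B6 (SE 0.73, edgeR adjusted p = 0.00891) and by 2.12 in SjSS (SE 0.59, edgeR adjusted p = 0.00483). With ACs the log2 fold change was -0.04 in B6 (SE 0.55, edgeR adjusted p = 0.968) and -1.16 in SjSS (SE 0.54, edgeR adjusted p = 0.0719). The value in SjSS passed the test without replicate 1 of the AC samples (-1.93, edgeR adjusted p = 0.0123) and when the compared groups alone were fitted (0.0481). The standard errors of Zbtb16, 0.54 to 0.73 in these 4 comparisons, were the largest of the 9 genes, those of the next gene, Ddit4, being 0.18 to 0.19.

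Counted over the 9 genes, ACs called none in B6 and 1 in SjSS, and CpG called 3 in B6 and 2 in SjSS, all of them lower. With ACs in B6, 0 of the 9 genes were called higher (2.43% of all tested genes were) and 0 lower (2.04%), and by the adjusted p alone 1 rose, Tsc22d3 (20% of all), and 2 fell, Klf9 and Per1 (18.3%). The median log2 fold change was 0.06 over the 9 genes and 0.00 over all genes. With ACs in SjSS, 0 were called higher (7.09% of all) and 1 lower, Per1 (5.83%), and by the adjusted p alone 2 rose, Nr3c1 and Sgk1 (28.6%), and 4 fell, Ddit4, Klf9, Per1 and Tsc22d3 (29.4%). The median there was -0.99 over the 9 genes and -0.02 over all genes. Of the 8 targets, 1 rose with ACs in each strain, Tsc22d3 in B6 and Sgk1 in SjSS. Per1 at -1.35 and Ddit4 at -1.27 lay on either side of the fold threshold: without replicate 1 of the SjSS controls both were called, and without replicate 1 of the AC samples Per1 was at -1.28 and Zbtb16 was the gene called.

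With CpG in B6, 0 of the 9 genes were called higher (5.86% of all tested genes) and 3 lower, Tsc22d3, Zbtb16 and Klf9 (6.88%), and by the adjusted p alone 1 rose, Nr3c1 (28.1%), and 7 fell (29.8%), the targets other than Per1. With CpG in SjSS, 0 were called higher (4.81%) and 2 lower, Tsc22d3 and Zbtb16 (4.45%), and by the adjusted p alone 1 rose, Nr3c1 (27.8%), and the same 7 targets fell (26.4%). Ddit4 was also called lower in SjSS without replicate 1 of the controls (-1.37), and Klf9 without replicate 2 of the CpG samples (-1.34), which made 3 genes in either case. The median log2 fold change over the 9 genes was -1.02 in B6 and -0.91 in SjSS, against -0.04 and -0.01 over all genes. The AC and CpG comparisons of a strain share its control samples. DESeq2 called as many of the 9 genes in each direction as edgeR did in each of these 4 comparisons, and also in the strain differences and interactions below.

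The difference between the strains in the AC response was tested by an interaction term. It was 1.10 for Nr3c1 (SE 0.10, edgeR adjusted p = 6.12e-08), a response higher in SjSS, and -1.51 for Tsc22d3 (SE 0.15, edgeR adjusted p = 1.38e-07), -1.40 for Ddit4 (SE 0.26, edgeR adjusted p = 0.000338) and -0.92 for Per1 (SE 0.14, edgeR adjusted p = 4.36e-05), responses lower in SjSS. The receptor's transcript and those of 3 of its targets thus parted in opposite directions in SjSS BMDMs. For Sgk1 the interaction was 0.45 (SE 0.19, edgeR adjusted p = 0.0632), and it passed the test with DESeq2 (adjusted p = 0.0301) and with the replicate number as a block within each strain (edgeR adjusted p = 0.035). For Klf9 it was -0.14 (SE 0.15, edgeR adjusted p = 0.507), for Fkbp5 0.02 (95% interval from the SE -0.27 to 0.32, edgeR adjusted p = 0.92), for Errfi1 -0.08 (SE 0.18, edgeR adjusted p = 0.789) and for Zbtb16 -1.13 (SE 0.78, edgeR adjusted p = 0.283). Of the 9 genes, 0 were called higher (4.76% of all tested genes) and 2 lower, Tsc22d3 and Ddit4 (2.77%), and by the adjusted p alone 1 was higher (19.6%) and 3 lower (18.3%). Ddit4 no longer passed the fold threshold without replicate 2 of the B6 controls or replicate 3 of the SjSS controls (-1.15 in the latter).

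By the interaction test, the CpG response of 1 of the 9 genes passed the threshold. Tsc22d3 fell less in SjSS, with an interaction of 0.87 (SE 0.15, edgeR adjusted p = 0.00219). The values for Sgk1 (0.63, SE 0.19, edgeR adjusted p = 0.0558, but 0.0189 with DESeq2 and 0.0257 with the replicate number as a block) and Klf9 (0.49, SE 0.16, edgeR adjusted p = 0.0787) had the same sign and missed the threshold in the reported model. For Nr3c1 the interaction was 0.05 (95% interval from the SE -0.14 to 0.25, edgeR adjusted p = 0.818). Of the 9 genes, 0 were called higher (0.285% of all tested genes) and 0 lower (0.329%), and by the adjusted p alone 1 was higher (3.23%) and 0 lower (2.62%). At an unadjusted p under 0.05, edgeR counted 3 higher, the genes above, and 0 lower, and DESeq2's adjusted p counted 2 higher and 0 lower. The lowest value was that of Ddit4 (-0.47, SE 0.27, edgeR adjusted p = 0.348).

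Untreated BMDMs of the strains differed in 3 of the 9 genes. Against B6, untreated SjSS BMDMs had more Ddit4 (log2 difference 0.92, SE 0.18, edgeR adjusted p = 0.0015) and Tsc22d3 (0.38, SE 0.10, edgeR adjusted p = 0.0127, and 0.0584 without replicate 2 of the B6 controls) and less Nr3c1 (-0.29, SE 0.07, edgeR adjusted p = 0.00736). For none of these did the strains overlap. Without treatment 0 of the 9 genes were called higher in SjSS (1.3% of all tested genes) and 0 lower (0.716%), and by the adjusted p alone 2 were higher (9.04%) and 1 lower (10.6%).

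With ACs, SjSS BMDMs had more Nr3c1 than B6 (0.81, SE 0.07, edgeR adjusted p = 1.75e-08) and more Sgk1 (0.46, SE 0.13, edgeR adjusted p = 0.00757), and less Tsc22d3 (-1.13, SE 0.10, edgeR adjusted p = 4.06e-08) and Per1 (-1.03, SE 0.10, edgeR adjusted p = 1.43e-07). Ddit4 (-0.47, SE 0.19, edgeR adjusted p = 0.0457) and Klf9 (-0.30, SE 0.11, edgeR adjusted p = 0.0318) were also lower. The strains did not overlap for any of these 6 genes. The difference in Ddit4 missed the test without any 1 of the 6 AC samples (edgeR adjusted p from 0.0785 to 0.112) and with DESeq2's size factors (0.0557), and that in Klf9 without replicate 1 or 3 of the B6 or replicate 1 or 2 of the SjSS AC samples (0.083 to 0.148). Of the 9 genes, 0 were called higher in SjSS (6.24% of all tested genes) and 0 lower (2.69%), and by the adjusted p alone 2 were higher (24%) and 4 lower (25.5%).

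With CpG, SjSS BMDMs had more Tsc22d3 than B6 (1.26, SE 0.12, edgeR adjusted p = 4.39e-07) and more Sgk1 (0.63, SE 0.13, edgeR adjusted p = 0.00244), both without overlap. Nr3c1 was lower (-0.23, SE 0.07, edgeR adjusted p = 0.0241), and missed the test without replicate 1 of the B6 or replicate 2 of the SjSS CpG samples (edgeR adjusted p = 0.0983 and 0.0979). Of the 9 genes, 0 were called higher in SjSS (1.82% of all tested genes) and 0 lower (0.792%), and by the adjusted p alone 2 were higher (10.2%) and 1 lower (9.57%). Tsc22d3 passed the fold threshold, at 1.34 and 1.40, without replicate 3 of the B6 or of the SjSS CpG samples.

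Other genes that glucocorticoids induce moved both ways with ACs, as did the 8 targets. Of 34 such genes, 33 were tested. With ACs 14 rose and 11 fell in B6 (20% and 18.3% of all tested genes), with 3 called higher and 4 lower (2.43% and 2.04% of all). In SjSS 16 rose and 10 fell (28.6% and 29.4% of all), with 10 called higher and 5 lower (7.09% and 5.83% of all). The metallothionein genes Mt1 and Mt2, which bind zinc and which metals as well as steroids induce, were among those that rose in both strains. Mt2 went from a mean of 23.8 to one of 231 CPM in B6 (log2 fold change 3.28, SE 0.19, edgeR adjusted p = 1.3e-10) and from 13.1 to 137 CPM in SjSS (3.38, SE 0.19, edgeR adjusted p = 1.5e-11). Mt1 and Tnfaip3, an inhibitor of NF-κB that inflammatory signals also induce, completed the genes called higher in B6, at 1.61 and 1.47 (edgeR adjusted p = 2.71e-09 and 8.11e-10). In SjSS the largest increases after Mt2 were those of Tnfaip3 (3.31, SE 0.10, edgeR adjusted p = 2.66e-15) and Lcn2 (3.20, SE 0.45, edgeR adjusted p = 5.39e-06), an iron-binding acute phase protein.

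Decreases with ACs among these other genes were led by Sesn1 and Lpin1 in SjSS and by Adora3 and Lpin1 in B6. In SjSS, Sesn1, a p53 and FOXO target of the sestrin family, fell from 189 ± 34.4 to 21.4 ± 0.283 CPM (-3.15, SE 0.11, edgeR adjusted p = 1.71e-14), followed by Lpin1, a phosphatidate phosphatase (-3.12, SE 0.15, edgeR adjusted p = 1.62e-12), and Angptl4, an inhibitor of lipoprotein lipase (-1.70, SE 0.17, edgeR adjusted p = 5.73e-08). In B6 the leading decreases were those of Adora3 (-1.67, edgeR adjusted p = 0.000248), Lpin1 (-1.61, edgeR adjusted p = 3.81e-08) and Cdkn1c (-1.45, edgeR adjusted p = 0.0252). The median log2 fold change over the 33 genes was 0.04 in B6 and 0.32 in SjSS. The interaction with strain was higher in SjSS for 11 of the 33 and lower for 5 (19.6% and 18.3% of all tested genes). Of these, 7 were called higher (4.76% of all tested genes were), led by Lcn2 at 3.09, Tnfaip3 at 1.85 and Cdkn1c at 1.77 (edgeR adjusted p = 0.000605, 3.58e-09 and 0.039). The 2 called decreases (2.77% of all tested genes were called lower) were Sesn1 at -2.24 (SE 0.15, edgeR adjusted p = 9.56e-10) and Lpin1 at -1.51 (SE 0.20, edgeR adjusted p = 8.79e-06).

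With CpG, 14 of the 33 genes rose and 13 fell in B6 (10 and 7 called), and 13 rose and 12 fell in SjSS (7 and 5 called). Of all tested genes, 28.1% rose and 29.8% fell with CpG in B6, and 27.8% rose and 26.4% fell in SjSS. Called higher and lower were 5.86% and 6.88% of all in B6, and 4.81% and 4.45% in SjSS. Lcn2 led the increases in both strains (6.58 and 5.58), followed by Fpr1, the formyl peptide receptor gene (3.48 and 3.63). Rgs2, a regulator of G protein signaling, fell from 153 ± 5.53 to 8.50 ± 2.59 CPM in B6 (-4.17, SE 0.22, edgeR adjusted p = 6.82e-12) and from 223 ± 26.2 to 36.3 ± 12.8 CPM in SjSS (-2.62, SE 0.20, edgeR adjusted p = 1.63e-09), and Lpin1 and Angptl4 fell in both. The interaction for Rgs2 was 1.55 (SE 0.28, edgeR adjusted p = 0.00261), a smaller fall in SjSS as for Tsc22d3. Many of these genes are also NF-κB or interferon targets, so that the list is not a measure of the receptor alone.

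**Figure D2:**
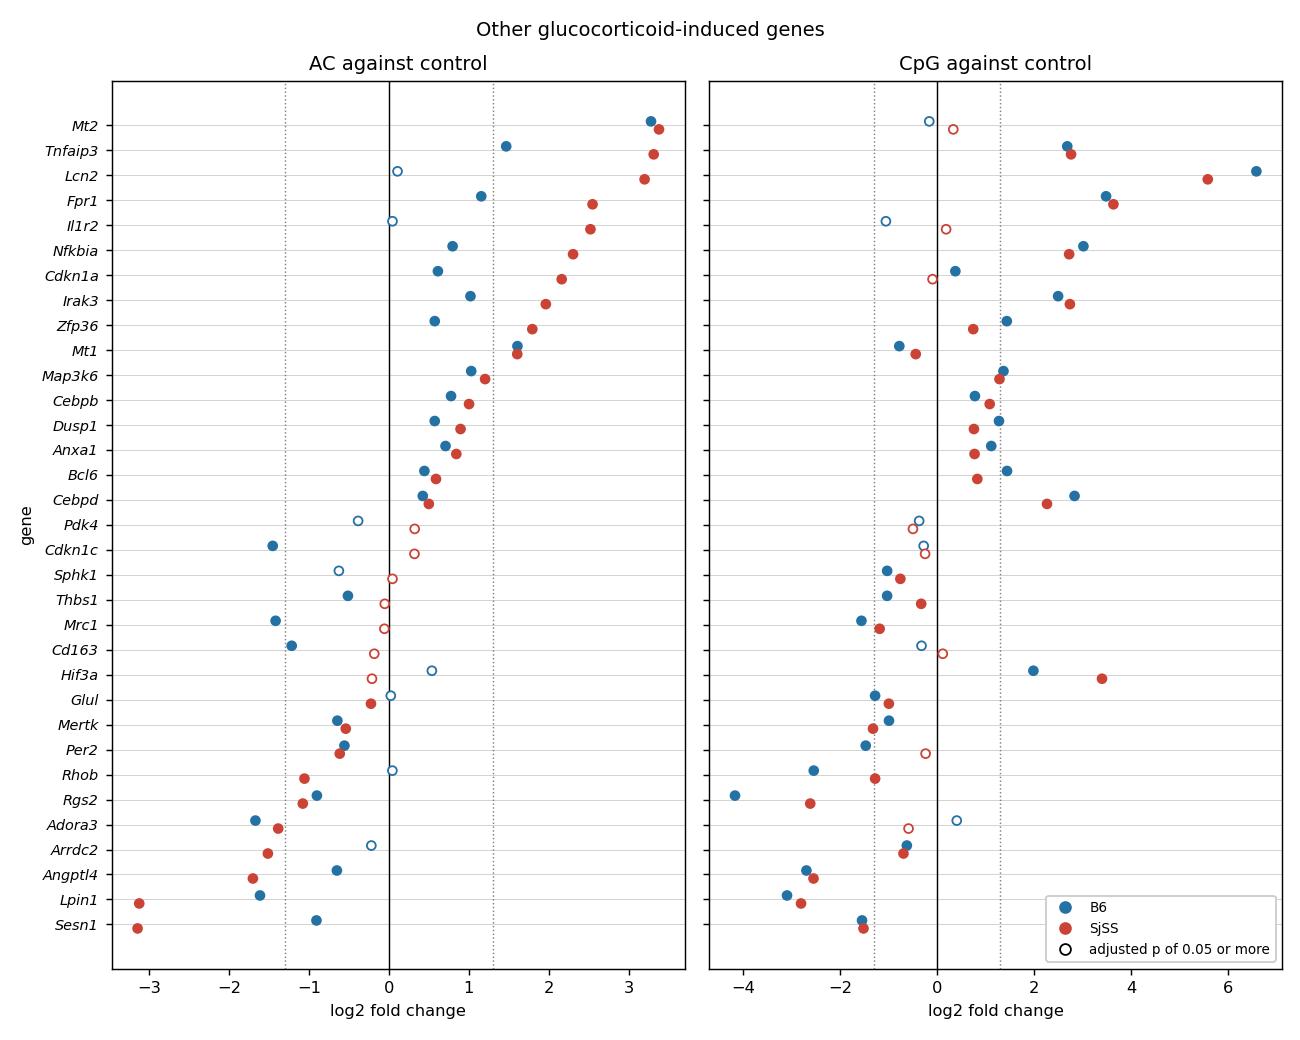
Log2 fold change (horizontal axes) with ACs and with CpG of 33 other genes that glucocorticoids induce (vertical axis, ordered by the AC response in SjSS), in B6 (blue) and SjSS (red). Open points had an edgeR adjusted p of 0.05 or more and dotted lines mark 1.3 in size. Mt2 rose with ACs by 3.28 in B6 and 3.38 in SjSS, while Sesn1 and Lpin1 fell further in SjSS (-3.15 and -3.12) than in B6.

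Of 14 cytokine, chemokine and effector genes that the receptor is known to repress, 13 were tested, and most rose with both treatments. With ACs 12 rose in B6 (20% of all tested genes did), with 11 called higher (2.43% of all were). The 1 that fell was the gelatinase gene Mmp9 (65.7 to 44.6 CPM, -0.56, SE 0.14, edgeR adjusted p = 0.00284). In SjSS all 13 rose with ACs (28.6% of all did), with 12 called higher (7.09% of all were). The median log2 fold change was 2.44 in B6 and 5.61 in SjSS with ACs, and 4.53 and 3.41 with CpG. With CpG 12 rose in each strain (28.1% and 27.8% of all tested genes rose), with 11 and 10 called (5.86% and 4.81% of all). Ifnb1 did not pass the test with CpG (0.94 and 0.03, edgeR adjusted p = 0.455 and 0.977). Examples with ACs are Il6, from 0.103 ± 0.0633 to 5.27 ± 1.39 CPM in B6 (5.58, SE 0.38, edgeR adjusted p = 1.26e-09) and from 0.0674 ± 0.0748 to 69.3 ± 12.0 CPM in SjSS (10.21, SE 0.35, edgeR adjusted p = 1.35e-14). All 13 genes were called higher in SjSS than in B6 with ACs (6.24% of all tested genes were). None was higher with CpG, where 11 were lower (9.57% of all were) and 5 of them called (0.792% of all). The AC response was higher in SjSS by the interaction for 12 of 13 (19.6% of all).

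Most chaperone genes of the receptor complex rose, by amounts under the fold threshold. Of 11 chaperone and co-chaperone genes, 9 rose with ACs in B6 (20% of all tested genes did) and 8 in SjSS (28.6%), where 1 fell, and with CpG 9 rose and 1 fell in B6 and 10 rose in SjSS (28.1% and 27.8% of all rose). None was called, and the median log2 fold change lay between 0.32 and 0.53 in the 4 comparisons. The largest increase with ACs was that of Dnaja1, an HSP40 co-chaperone, at 96.7 CPM in B6 control and 142 CPM in AC samples (0.55, SE 0.08, edgeR adjusted p = 3.59e-05) and at 78.8 and 171 CPM in SjSS (1.12, SE 0.08, edgeR adjusted p = 1.14e-09). Hsp90aa1, the inducible HSP90, was at 238 CPM in B6 control and 339 CPM in AC samples (0.51, edgeR adjusted p = 4.26e-06) and at 226 and 332 CPM in SjSS (0.56, edgeR adjusted p = 4.46e-07). Fkbp4, which competes with the Fkbp5 product for the receptor complex, was the gene that fell in SjSS (-0.22, edgeR adjusted p = 0.00286). Of 10 coregulator genes, 3 rose and 2 fell with ACs in B6 (20% and 18.3% of all tested genes). In SjSS, 2 rose and 7 fell (28.6% and 29.4% of all). None was called in either strain.

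Of 6 genes of steroid metabolism, steroid export and the second receptor, 5 were tested. With ACs none was called, while 1 rose and 1 fell in B6 (20% and 18.3% of all tested genes). In SjSS 2 rose and 1 fell (28.6% and 29.4% of all). The AC interaction was higher in SjSS for 2 of the 5 (19.6% of all) and lower for 0 (18.3%). Abcb1b, a drug and steroid exporter gene, was at 12.8 ± 0.876 CPM in B6 control and 12.4 ± 0.645 CPM in AC samples. In SjSS, Abcb1b was at 13.2 ± 1.72 and 28.9 ± 1.19 CPM (SD, n = 3). Hsd11b1, whose enzyme regenerates active glucocorticoid, was at 0.717 CPM in B6 control and 0.390 CPM in AC samples (-0.87, SE 0.34, edgeR adjusted p = 0.05) and at 0.585 and 0.760 CPM in SjSS (0.39, SE 0.33, edgeR adjusted p = 0.338). With CpG, Nr3c2, the mineralocorticoid receptor gene, fell from 0.860 ± 0.0326 to 0.133 ± 0.0851 CPM in B6 (-2.71, SE 0.51, edgeR adjusted p = 0.000141), and Abcb1a, a drug and steroid exporter gene, fell in B6 (-1.99, SE 0.18, edgeR adjusted p = 1.17e-08) and in SjSS (-1.53, SE 0.16, edgeR adjusted p = 1.8e-07).

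Genes that share a second input with a member were counted as well. Of 13 tested clock genes, beside Per1, 8 fell and 0 rose with ACs in B6 (2 called lower). In SjSS, 7 fell and 2 rose with ACs (4 called lower). Of all tested genes, 18.3% fell and 20% rose with ACs in B6, and 29.4% fell and 28.6% rose in SjSS. Called lower with ACs were 2.04% of all in B6 and 5.83% in SjSS. Dbp, an output gene of the clock, fell from 22.7 ± 0.731 to 8.31 ± 0.616 CPM in B6 (-1.45, SE 0.16, edgeR adjusted p = 6.76e-07) and from 28.9 ± 7.12 to 4.72 ± 0.384 CPM in SjSS (-2.61, SE 0.17, edgeR adjusted p = 9.76e-11), and Per3 fell in both. With CpG, under which Per1 did not pass the test, 7 clock genes fell and 3 rose in B6 (6 called lower). In SjSS, 6 fell and 1 rose with CpG (2 called lower). Dbp was at -3.42 in B6 and -2.31 in SjSS, and Bhlhe40 at -3.76 and -2.30. Of all tested genes, 29.8% fell and 28.1% rose with CpG in B6, and 26.4% fell and 27.8% rose in SjSS. Called lower with CpG were 6.88% of all in B6 and 4.45% in SjSS.

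Ddit4 also answers to ATF4 and to hypoxia, and genes of both were followed beside it. With ACs, 20% of all tested genes rose and 18.3% fell in B6, and 28.6% rose and 29.4% fell in SjSS. Called higher and lower were 2.43% and 2.04% of all in B6, and 7.09% and 5.83% in SjSS. Of 8 ATF4 and stress genes, 6 rose and 1 fell with ACs in B6 (1 called higher). In SjSS, 4 rose and 3 fell (2 called higher and 1 lower). In SjSS, Ppp1r15a (2.74, edgeR adjusted p = 1.64e-12) and Atf3 (1.39, edgeR adjusted p = 1.15e-12) were the genes called higher, and Sesn2 (-1.65, edgeR adjusted p = 6.66e-12) the gene called lower. Of 8 hypoxia genes, 3 rose and 1 fell with ACs in B6 with none called, and 2 rose and 4 fell in SjSS, with Hif1a called higher (1.40, edgeR adjusted p = 1.19e-09) and Ankrd37 and Egln3 lower (-2.32 and -1.92). In untreated SjSS BMDMs, where Ddit4 was higher than in B6, 2 of the 8 hypoxia genes were higher and 2 lower. Of all tested genes, 9.04% were higher and 10.6% lower, with 1.3% called higher and 0.716% called lower. Ankrd37 was the 1 hypoxia gene called, higher at 2.63 against 0.883 CPM in B6 (SE of the log2 difference 0.30, edgeR adjusted p = 0.000954). With CpG, under which Ddit4 fell, 6 hypoxia genes rose (4 called) and 2 fell in B6 (28.1% and 29.8% of all tested genes). In SjSS with CpG, 5 rose (1 called) and 2 fell (27.8% and 26.4% of all). Called higher with CpG were 5.86% of all tested genes in B6 and 4.81% in SjSS. None of the hypoxia genes was called lower with CpG in either strain (6.88% and 4.45% of all were). Vegfa, the gene of a vascular growth factor, was among those that fell, from 134 to 68.2 CPM in B6 (-0.97, SE 0.13, edgeR adjusted p = 1.81e-06) and from 100.05 to 76.0 CPM in SjSS (-0.39, SE 0.12, edgeR adjusted p = 0.012).

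Of 10 paralogs of the members, 1 rose and 4 fell with ACs in B6 (20% and 18.3% of all tested genes). In SjSS, 2 rose and 5 fell with ACs (28.6% and 29.4% of all). Per3 was the gene called in each strain, lower in both (2.04% and 5.83% of all tested genes were called lower). Tsc22d1, the relative of the GILZ gene in the same family, rose with CpG in B6 from 33.6 ± 2.28 to 99.3 ± 6.10 CPM (1.56, SE 0.08, edgeR adjusted p = 2.24e-12), where Tsc22d3 fell. By the deposited coordinates, none of the 9 members overlaps another gene of the deposited table.

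**Figure D3:**
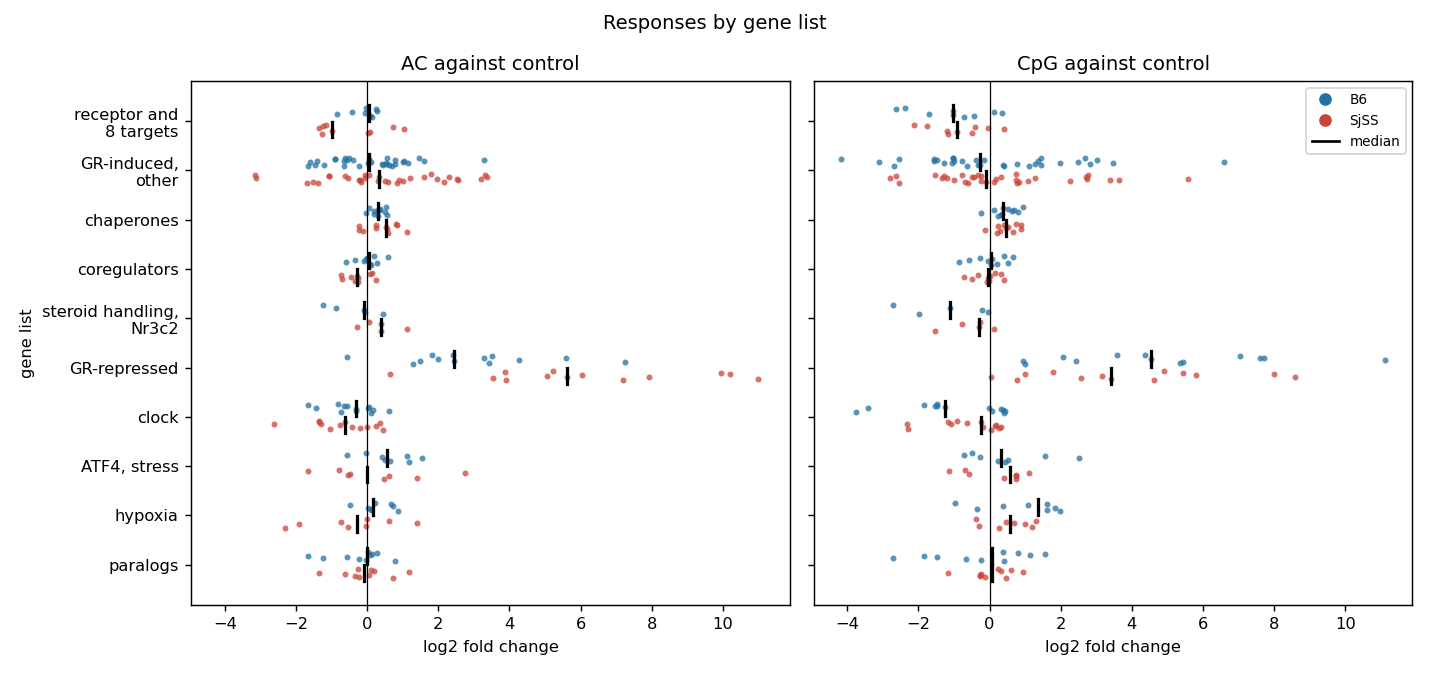
Log2 fold change (horizontal axes) with ACs and with CpG of the tested genes of 9 lists and of the receptor with its 8 targets (vertical axis), in B6 (blue) and SjSS (red). Points are genes and black lines are medians. Genes repressed by glucocorticoids have the highest medians (2.44 and 5.61 with ACs) and 1 gene below 0, Mmp9 with ACs in B6, the chaperones lie close together with medians just above it, and the receptor with its 8 targets has medians from -1.02 to 0.06.

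Thymocyte RNA was looked for with 30 T-lineage markers. The table held 28 of these, and 12 were tested. The summed level of the 28 was lower with ACs, 32.7 CPM against 83.5 in B6 controls (ratio 0.392) and 49.8 against 74.1 in SjSS (0.672), each with an exact two-sided permutation p of 0.1, the smallest that 3 samples against 3 allow. This sum rested on Cd28, at 70.1 CPM in B6 and 58.7 CPM in SjSS control BMDMs, which received no thymocytes. The 16 markers under the filter summed to 0.375 to 0.604 CPM in B6 control and 1.11 to 2.01 CPM in B6 AC samples (ratio 3.33, exact permutation p = 0.1), and to 0.177 to 0.792 CPM in SjSS control and 0.778 to 1.21 CPM in SjSS AC samples (ratio 1.98, exact permutation p = 0.2). In CpG samples, which received no thymocytes, the same sum was 0.585 to 1.499 CPM in B6, overlapping with the AC samples, and 0.296 to 0.845 CPM in SjSS. Trac, a T cell receptor gene, had 17 counts over the B6 CpG samples and 4 over the B6 AC samples. Rag1 and Dntt, markers of immature thymocytes, had 24 and 18 counts over the B6 AC samples and 0 in the B6 control and B6 CpG samples. Over the SjSS AC samples Rag1 had 3 counts and Dntt 1, against 0 and 2 in the SjSS controls and 0 and 3 with CpG. Of the 28 markers, 3 were at 0 in B6 control, 0 in B6 AC, 1 in SjSS control and 1 in SjSS AC samples. The part of thymocyte RNA in the AC responses of the 9 genes was not tested.

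Markers of other cells were low beside the macrophage markers. The neutrophil list, of which 5 of 8 genes were in the table, summed to 2.47 to 5.26 CPM in control and AC samples and 5.63 to 13.1 CPM with CpG. The B cell list (5 genes) summed to 16.7 ± 0.696 CPM in control, 12.2 ± 0.327 CPM in AC and 10.2 ± 0.979 CPM in CpG samples of B6, and to 22.5 ± 3.76, 13.3 ± 0.274 and 13.5 ± 1.76 CPM in those of SjSS (SD, n = 3). The dendritic cell list (5 genes) summed to 0.931 ± 0.180, 1.10 ± 0.117 and 1.78 ± 0.443 CPM in B6 and to 1.07 ± 0.177, 2.99 ± 0.529 and 1.96 ± 0.231 CPM in SjSS. The B cell sum thus lay below all control samples of the strain with ACs and with CpG, in both strains. The dendritic cell sum lay above all controls with ACs in SjSS and with CpG in both strains. With ACs in B6 it overlapped with the controls. The part of these cells in the changes of the 9 genes was not tested.

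For each gene whose group means spanned more than 1 on the log2 scale, the tested genes with the most similar profile over the 6 groups were found by the root mean square (RMS) difference of centred group means of log2 CPM. The profile of Tsc22d3, which spanned 3.00, was nearest to those of Rhob, itself on the list of other induced genes (RMS difference 0.189), Havcr2 (0.191) and Rragd (0.228). For Nr3c1 the nearest were Abhd16a (0.0609), Gm2541 (0.0654) and Sco1 (0.0752), and for Fkbp5 they were Dtnbp1 (0.0467), Gm6166 (0.0761) and Gramd1b (0.0794). The profile of Per1 was nearest to Zfp715 (0.0665), Arid3a (0.0946) and Lrrc20 (0.0947), and that of Sgk1 to Tgfbr3 (0.0702), Klra3 (0.101) and Xdh (0.107). Ddit4 was nearest to Pidd1 (0.127), Fam102a (0.135) and Cep97 (0.146), Klf9 to Smpd2 (0.0709), Prkag2 (0.0888) and Hddc3 (0.0929), and Zbtb16, on few counts, to Hyal1 (0.155), Mbd4 (0.199) and Haus8 (0.216). No member was among the 3 nearest genes of another. With 3 kept out of all tested genes over 1 CPM, this does not show whether members share a profile. Zbtb16, with a mean under 1 CPM, could not be a nearest gene. Errfi1 spanned 0.70 and was left out.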

How the data were processed

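The 18 BMDM RNA samples were put into 6 groups of 3 by their labels. The authors used STAR and the mm10 assembly, and deposited estimated counts per gene from Partek's E/M tool, not normalized. Of the values, 41.1% were not whole (tolerance 1e-06), so that the deposited estimated counts were rounded before any test. No column was left without a sample, and 23 names had been turned into dates, none of them a member. Of 19867 genes matched to GENCODE M21, 17559 (88.4%) had the same start as the deposited coordinates, which are the ones printed.

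Tests were run with edgeR 4.0.16 in R 4.3.3. After filterByExpr, which kept 15789 genes, and TMM scaling, a single quasi-likelihood model of the 6 group means was fitted to all 18 samples, which pools their spread. Of 9 comparisons, 4 were treatment responses, 3 were strain differences and 2 were interactions. Benjamini-Hochberg adjustment was made within each comparison. The thresholds for calling a gene, 0.05 for the adjusted p and 1.3 for the size of the log2 fold change, are those of the study's methods. The SE was the log2 fold change divided by the square root of F, and 95% intervals are normal intervals from it. The steps were tested on simulated data. Totals of 30688336 to 57139662 counts gave all members but Zbtb16 at least 99 counts in each sample.

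Every member is named. Of each gene list, the text names up to 3 called increases and 3 called decreases. Beside these it names Dnaja1, Hsp90aa1, Fkbp4, Hsd11b1, Abcb1b, Mmp9, Ifnb1, Vegfa and the T-lineage markers Cd28, Trac, Rag1 and Dntt, which were chosen after their values were seen. The members and the lists were chosen with earlier results of these data known. For the profile comparison, a prior count of 2 was added before taking log2 CPM, and genes needed a mean over 1 CPM. The alternatives were DESeq2 1.42.0, its size factors within edgeR, no filter, a filter of 10 counts in 3 samples, dropping the fold threshold, fitting the compared groups alone, the replicate number as a block, and each sample left out in turn. Same-numbered samples of a strain had correlated deviations from their group means, from 0.0198 to 0.264 over 18 pairs. Samples of unequal number ran from -0.252 to 0.0745 over 36 pairs. All 3 same-numbered pairs were over 0.1 for control and CpG in B6 (0.137 to 0.264) and in no other pair of groups. By that cut, the CpG response in B6 alone was marked as paired, yet its printed values are not paired. The cut does not decide whether equal numbers mark a shared mouse in the other comparisons. The printed values come from the model without a block throughout, and the block changed no call for the CpG response in B6. Other steps used Python 3.11.15 with scipy 1.17.1, pandas 2.3.3, matplotlib 3.10.9 and numpy 2.4.6.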

Additional observations from a re-analysis of the deposited data

Results flagged for a closer look

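The AC response differed between the strains by the interaction test for 4 of the 9 genes (edgeR's quasi-likelihood test, Benjamini-Hochberg adjustment), 1 higher and 3 lower in SjSS, where 19.6% of all tested genes were higher and 18.3% lower. Nr3c1 responded more in SjSS by 1.10 on the log2 scale (adjusted p = 6.12e-08), with all 3 AC samples above the controls in SjSS and overlapping groups in B6. The difference for Tsc22d3 was -1.51 (adjusted p = 1.38e-07), with a fall in SjSS and a small value in B6 (0.26) that did not pass the test when any 1 sample was left out. The differences for Ddit4 were -1.40 (adjusted p = 0.000338) and for Per1 -0.92 (adjusted p = 4.36e-05). For the CpG response, Tsc22d3 differed by 0.87 (adjusted p = 0.00219), its fall being smaller in SjSS.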

How the results depend on the processing

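Of 1077 values of single members under an alternative, 1001 kept their direction and side of the threshold, 26 lost and 22 gained significance, and 28 changed sign, none of them a value with an adjusted p under 0.05 in the reported fit. Without a fold threshold, the members counted as higher and lower were 1 and 2 for ACs in B6, 2 and 4 for ACs in SjSS, 1 and 7 for CpG in B6 and in SjSS, 2 and 1 between control strains, 2 and 4 with ACs, 2 and 1 with CpG, 1 and 3 for the AC interaction, and 1 and 0 for the CpG interaction. With each sample left out, the number called lower was 1 to 2 for ACs in SjSS and 1 to 2 for the AC interaction, that for CpG in SjSS was 2 to 3, and the number called higher between the strains with CpG was 0 to 1. The numbers called did not change under the replicate block (0 and 0 for ACs in B6, 0 and 1 in SjSS, 0 and 3 for CpG in B6, 0 and 2 in SjSS, 0 and 2 for the AC interaction). Whether samples of equal number share a mouse is not stated. Every sample correlated best with its own number in 5 of 6 pairs of groups. In the pair of B6 control and B6 AC, 2 of 6 samples did. Under the block, Sgk1 passed the test in both interactions (0.46 and 0.64, edgeR adjusted p = 0.035 and 0.0257) and Per1 between the strains with CpG (-0.26, 0.0227), where equal numbers are of different mice. Signs changed at values near 0, the strain difference of Sgk1 in controls (0.00 as reported) being -0.0089 with no filter and -0.0023 under the block, and that of Zbtb16 with ACs -0.034 under the block. With each sample left out, log2 values ran from -0.010 to 0.18 for Fkbp5, -0.018 to 0.22 for Errfi1 and -0.41 to 0.31 for Zbtb16 with ACs in B6, from -0.12 to 0.16 for Errfi1 with ACs in SjSS, from -0.15 to 0.060 for Per1 with CpG in SjSS, from -0.087 to 0.13 for Sgk1 between control strains and from -0.75 to 0.40 for Zbtb16 between strains with ACs. In the AC interaction they ran from -0.10 to 0.10 for Fkbp5 and -0.21 to 0.072 for Errfi1, and in the CpG interaction from -0.010 to 0.13 for Nr3c1, -0.013 to 0.23 for Fkbp5, -0.19 to 0.093 for Errfi1 and -0.12 to 0.76 for Zbtb16. The ratio of T-lineage markers turned from 0.392 to 3.33 in B6 and from 0.672 to 1.98 in SjSS when the genes that passed the filter were left out. With a prior count of 0.5, the 3 nearest genes were the same for Nr3c1, Tsc22d3, Per1 and Klf9, 2 of 3 were for Fkbp5, Sgk1 and Ddit4, and 1 of 3 for Zbtb16. Zbtb16, at 1 to 35 counts a sample, was the member that depth limited most, and it failed the filter when the CpG samples of B6 were fitted with their controls alone or with the CpG samples of SjSS alone, which gave no value there.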
